A study of Homo sapiens with 6 samples.

Results

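Precursor B cells and the leukaemias that arise from them are recognised by a small set of genes, and 10 of these were followed here in the RNA of 2 B cell lines: CD34, FLT3, KIT, MME, CD38, CD99, SOX4, ARPP21, WT1 and CD33. They were taken by symbol from a table of FPKM (fragments mapped, scaled by transcript length and by the size of the library) for each library, and 10 of 10 were found among the 47642 symbols used. The lines, LY19WT and LY19Y646F, are labelled as immortalized lymphoma B cells. LY19WT has wild-type EZH2, and LY19Y646F expresses EZH2-Y646F, a mutant of the methyltransferase of Polycomb repressive complex 2, constitutively from a CMV promoter. Cells of both lines were at passage 10 to 15 and untreated, and each line gave 3 libraries of messenger RNA. The series calls them biological replicates, and the labels do not say whether either line is 1 clone, whether LY19Y646F still makes wild-type EZH2, or whether each library had its own culture. The p-values therefore reflect library spread alone, which may be technical.

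Blood stem and progenitor cells carry the adhesion glycoprotein CD34 and the receptor tyrosine kinases FLT3 and KIT. As cells commit to the B lineage and rearrange their antigen receptor genes, they display the peptidase MME (CD10, the common acute lymphoblastic leukaemia antigen) and the ectoenzyme CD38, and both reappear on germinal centre B cells. CD99 is a surface glycoprotein that is brighter on leukaemic lymphoblasts than on normal B precursors. SOX4 is a transcription factor needed for early B cell development, ARPP21 a cAMP-regulated phosphoprotein expressed in B precursors, WT1 a zinc finger factor found in many acute leukaemias, and CD33 a sialic acid-binding receptor of myeloid cells that some lymphoblastic leukaemias share.

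No total of reads is given for any library in the sources used here. From the confidence intervals in the tables, depth relative to LY19WT replicate 1 ranged from 1.00 to 1.10. EZH2 had 60.6, 76.5 and 74.7 FPKM in LY19WT against 70.2, 80.4 and 93.5 FPKM in LY19Y646F, with overlapping libraries, and an introduced transcript would fall in the same row as the native one, so this does not check the labels. The B lineage label was checked on CD79A, a signalling chain of the B cell receptor, which had 59.0 ± 32.2 FPKM in LY19WT and 155 ± 142 FPKM in LY19Y646F (SD, n = 3 per line). The row naming MS4A1, the mature B cell antigen CD20, held 0.0990 ± 0.0369 FPKM in LY19WT and 104 ± 18.5 FPKM in LY19Y646F, so this defining marker was close to 0 in the libraries labelled LY19WT. Whether the libraries labelled LY19WT and LY19Y646F come from 1 parent line was not tested here, and "rose" and "fell" stand for differences between the libraries so labelled. The 10 highest rows held 27.5% of the summed FPKM in LY19WT replicate 3 and at most 9.38% in the other libraries.

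The starts of 10 of 10 markers were matched in RefSeq (GRCh38.p14), and the 250 bases before each of 24 starts were read. The windows of CD33, CD38, CD99 and KIT are shown because their content of CpG, the dinucleotide that clusters in CpG islands, spans the range among the markers with a single start. CD33 and CD38 were lower in LY19Y646F, CD99 was higher, and KIT was at or near 0 in both lines. Capitals mark each CpG.
CD33 (chr19:51224830-51225079, plus strand): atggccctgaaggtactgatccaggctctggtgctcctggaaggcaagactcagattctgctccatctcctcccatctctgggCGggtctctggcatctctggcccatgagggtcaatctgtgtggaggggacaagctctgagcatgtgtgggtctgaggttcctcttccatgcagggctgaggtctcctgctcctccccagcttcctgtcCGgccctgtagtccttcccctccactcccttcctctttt
CD38 (chr4:15778078-15778327, plus strand): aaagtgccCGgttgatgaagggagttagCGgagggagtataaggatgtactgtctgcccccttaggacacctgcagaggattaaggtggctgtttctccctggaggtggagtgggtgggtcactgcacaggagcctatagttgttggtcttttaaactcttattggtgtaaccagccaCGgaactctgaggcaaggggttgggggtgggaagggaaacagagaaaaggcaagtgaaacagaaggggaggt
CD99 (chrX:2691045-2691294, plus strand): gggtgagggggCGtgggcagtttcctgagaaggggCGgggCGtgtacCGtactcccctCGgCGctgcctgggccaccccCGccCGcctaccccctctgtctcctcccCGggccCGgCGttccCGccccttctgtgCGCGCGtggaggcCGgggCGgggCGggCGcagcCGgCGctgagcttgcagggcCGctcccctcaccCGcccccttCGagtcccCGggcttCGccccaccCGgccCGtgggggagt
KIT (chr4:54657707-54657956, plus strand): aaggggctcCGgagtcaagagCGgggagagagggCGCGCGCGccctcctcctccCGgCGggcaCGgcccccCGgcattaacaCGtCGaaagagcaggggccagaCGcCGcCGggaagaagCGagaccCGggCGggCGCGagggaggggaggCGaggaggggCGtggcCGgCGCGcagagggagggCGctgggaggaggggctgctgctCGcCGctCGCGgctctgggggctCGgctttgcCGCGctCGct

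CD33 held 2 CpG and CD38 held 3, CD99 held 28 and KIT 34, where the median of 35116 promoter windows was 11. Among the other markers with 1 start, SOX4 held 8, CD34 14 and FLT3 26. MME held 15 to 25 over 4 starts, WT1 3 to 19 over 4 and ARPP21 0 to 30 over 9, so for these genes the count depends on which start is used, which the tables do not give. CD34, FLT3 and KIT, which were too low to test, thus lay above the median, as did CD99, which was higher in LY19Y646F. The lower markers with 1 start, CD33, CD38 and SOX4, lay below it. WT1 and ARPP21, also lower, had starts on both sides of the median, and MME, not called, lay above it at each start. A link between CpG count and the difference between the lines was not tested. Short motifs were also searched on both strands. The SP1 motif GGGCGG, which itself holds a CpG, was in 9 of the 24 windows, from 7 of 10 markers (42.6% of all promoter windows). The MYB motif AACTG was in 8 of 24, from 4 markers (34.1%). The E2A motif CAGCTG was in 4 of 24, from ARPP21, SOX4 and WT1 (14.0%). The ETS motif GGAAGT was in 2 of 24, from ARPP21 and MME (19.5%), and the RUNX motif TGTGGT in 3 of 24, all of ARPP21 (11.0%). The percentages are per window, so they stand against the counts of windows and not of markers. Markers with several starts had more windows in which a motif could fall.

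The receptors of stem and progenitor cells were at or near 0 in both lines, so neither line kept CD34, KIT or FLT3 at 1 FPKM. CD34 (hg19 chromosome 1, 208057594 to 208084747) had 0.00772, 0 and 0 FPKM in LY19WT against 0.0239, 0.0231 and 0 FPKM in LY19Y646F. KIT (chromosome 4, 55524085 to 55606881) was listed at 0 in each LY19WT library and measured 0.0104, 0.00503 and 0.00361 FPKM in LY19Y646F. For CD34 and KIT, the 95% interval given by Cufflinks, the program that estimated the values, began at 0 in each library, with upper ends of at most 0.116 FPKM. FLT3 (chromosome 13, 28577411 to 28674823) had 0.116, 0.222 and 0.187 FPKM in LY19WT against 0, 0.00552 and 0.0121 FPKM in LY19Y646F. Its LY19WT libraries were all above those of LY19Y646F, and the Cufflinks interval lay above 0 in LY19WT replicates 2 and 3 (from 0.0787 and 0.0824 FPKM) and began at 0 in the other 4 libraries. All 3 genes were below the mean of 0.5 FPKM required for testing. The exact two-sided permutation p was 0.10 for FLT3 and for KIT, the smallest that 3 libraries against 3 can give, and 0.40 for CD34. When every gene above 0 was tested, FLT3 was called lower (-0.22 on the log2(FPKM + 1) scale, limma adjusted p = 0.013), and CD34 and KIT were not (limma adjusted p = 0.37 and 0.39).

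MME was the marker kept at a high level by both lines. MME (chromosome 3, 154741913 to 154901619) had 46.1, 74.3 and 48.3 FPKM in LY19WT against 84.1, 81.5 and 84.6 FPKM in LY19Y646F. Each LY19Y646F library was above each LY19WT library, but LY19WT replicate 2 stood close to them. The difference on the log2(FPKM + 1) scale, 0.59 (SE 0.20, 95% interval 0.09 to 1.10 before adjustment), had a limma adjusted p of 0.076 and was not called. Without LY19WT replicate 2 it was 0.81 with a limma adjusted p of 0.0078, and over the 16 alternatives the adjusted p ran from 0.0078 to 0.20. MME ranked above 84.5% to 90.3% of tested genes in the LY19WT libraries and above 90.3% to 90.6% in those of LY19Y646F.

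CD38 and CD99, the other antigens of the precursor surface, moved apart. CD38 (chromosome 4, 15779898 to 15854853), which makes cyclic ADP-ribose, had 26.1, 27.1 and 31.7 FPKM in LY19WT against 11.0, 9.42 and 10.7 FPKM in LY19Y646F, so the lines did not overlap. It fell from a mean of 28.3 ± 2.99 to 10.4 ± 0.851 FPKM (SD, n = 3 each), a ratio of means of 2.72. The difference was -1.36 on the log2(FPKM + 1) scale (SE 0.12, limma adjusted p = 0.00088). In bulk RNA, fewer cells that express a gene and less RNA in each cell cannot be told apart, which holds for each marker here. CD99 had 17.2, 13.8 and 15.7 FPKM in LY19WT against 72.9, 47.5 and 97.7 FPKM in LY19Y646F. It rose by 2.10 on the log2(FPKM + 1) scale (SE 0.28, limma adjusted p = 0.0034), with the wider spread in LY19Y646F, and the ratio of the means was 4.67. In 5 of the 6 libraries the row of CD99 (chromosome X, 2527389 to 2659350) also names the neighbouring pseudogene CD99P1. In LY19WT replicate 1 the pseudogene has a row of its own with 1.29 FPKM, and adding that row left a log2 change of 2.07 (limma adjusted p = 0.0040). The tables do not show how much of the merged rows is CD99P1, so the value is that of the row.

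**Figure D1:**
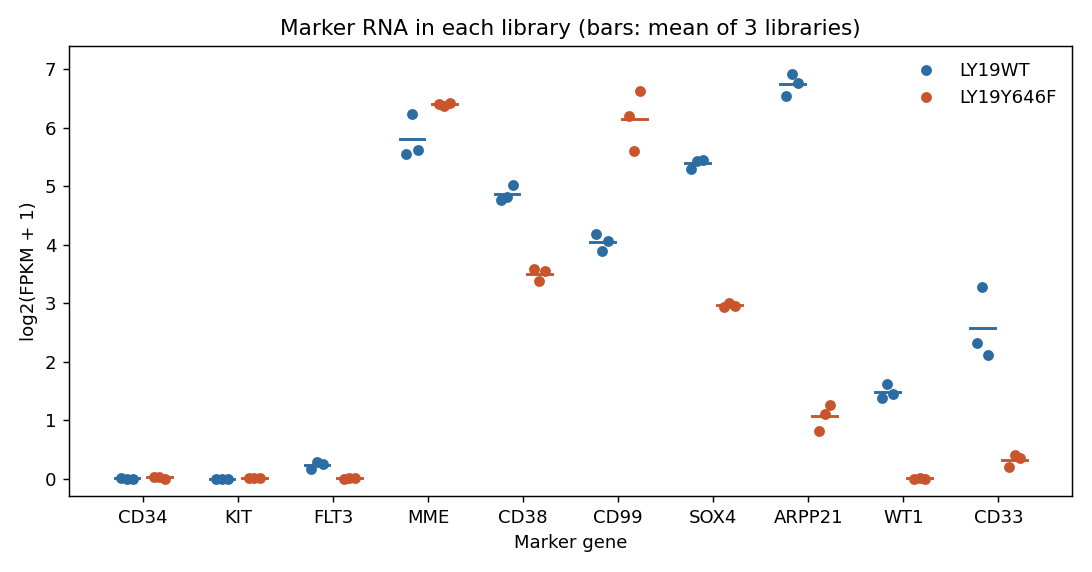
Expression of the 10 markers as log2(FPKM + 1) in the 3 libraries of LY19WT (blue) and of LY19Y646F (orange), with bars at the mean of each line. MME is high in both lines, CD99 is higher in LY19Y646F, CD38, SOX4, ARPP21, WT1 and CD33 are lower there, and CD34 and KIT lie at the bottom in both.

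ARPP21 had the largest difference among the tested markers on the log2(FPKM + 1) scale. ARPP21 (chromosome 3, 35680437 to 35835988) had 92.7, 120 and 107 FPKM in LY19WT against 0.765, 1.16 and 1.40 FPKM in LY19Y646F. It was the highest of the 10 markers in each LY19WT library and fell by 5.68 on the log2(FPKM + 1) scale in LY19Y646F (SE 0.17, limma adjusted p = 2.7e-05). The ratio of the means was 96.3, and 27 of the 10716 tested genes had a more negative change. With 1 LY19Y646F library at 0.765 FPKM and the others at 1.16 and 1.40 FPKM, ARPP21 lay at the border of the 1 FPKM used here to count a marker as kept. SOX4 (chromosome 6, 21593972 to 21598932) had 38.5, 42.2 and 42.5 FPKM in LY19WT against 6.67, 7.02 and 6.78 FPKM in LY19Y646F. Its libraries lay close together within each line and did not overlap. SOX4 fell by 2.42 on the log2(FPKM + 1) scale (SE 0.10, limma adjusted p = 4.8e-05), and the ratio of the means was 6.01. SOX4 RNA thus remained above 5 FPKM in each LY19Y646F library while ARPP21 RNA did not.

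WT1 and CD33 were the lowest of the tested markers in LY19WT and were lower still in LY19Y646F. WT1 (chromosome 11, 32408986 to 32457176) had 1.59, 2.07 and 1.74 FPKM in LY19WT against 0, 0.00732 and 0 FPKM in LY19Y646F, and fell by 1.48 on the log2(FPKM + 1) scale (SE 0.13, limma adjusted p = 0.00076). That scale understates the change of a gene this low, and no ratio is given because 2 libraries are listed at 0. CD33 (chromosome 19, 51728145 to 51747115) had 3.99, 8.69 and 3.33 FPKM in LY19WT against 0.151, 0.328 and 0.281 FPKM in LY19Y646F. LY19WT replicate 2 was the highest, and the lines did not overlap. CD33 fell by 2.25 on the log2(FPKM + 1) scale (SE 0.33, limma adjusted p = 0.0051), or by 1.89 without LY19WT replicate 2. The ratio of the means was 21.1, so that scale understates this change as well. WT1 and CD33 passed the filter on low values only through LY19WT.

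Of the 10 markers 7 were tested, and 5 of these were called lower and 1 higher. Among all tested genes 33.3% were called, 16.5% lower and 16.8% higher. The libraries of the lines did not overlap for 7 of the 7 tested markers, where the share among all tested genes was 48.6%. The markers were chosen with results of these libraries known and 2 of them had to differ to be tested, so these counts describe the set and test nothing about it. The 5 lower calls and the call of CD99 kept their direction and their side of the threshold in each alternative in which the gene could be tested. By the count of markers with at least 1 FPKM in each library of a line, LY19WT kept 7 of 10 (MME, CD38, CD99, SOX4, ARPP21, WT1 and CD33) and LY19Y646F kept 4 (MME, CD38, CD99 and SOX4).

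**Figure D2:**
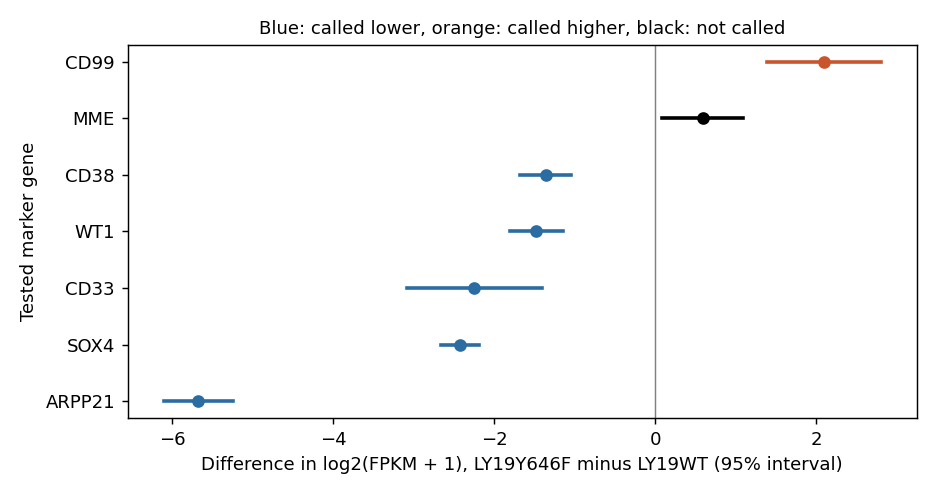
Difference in log2(FPKM + 1) between the lines for the 7 tested markers, as the limma estimate with its unadjusted 95% interval. ARPP21 lies farthest below 0 at -5.68 and CD99 farthest above at 2.10, and MME at 0.59 was not called.

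The make-up of the set differed more than its total. The FPKM of the 10 markers summed to 226, 288 and 251 in LY19WT and to 176, 147 and 201 in LY19Y646F. ARPP21 held 41.8 ± 0.923% of that sum in LY19WT and 0.640 ± 0.184% in LY19Y646F (SD, n = 3 each). MME and CD99 together made up most of it in LY19Y646F, with 48.4 ± 6.74% and 40.8 ± 8.11%, against 21.8 ± 3.46% and 6.21 ± 1.40% in LY19WT. In LY19WT the order of FPKM was ARPP21, MME, SOX4, CD38, CD99, CD33, WT1 and FLT3, with no overlap between neighbours, and then CD34 and KIT, which overlapped. In LY19Y646F MME and CD99 led and overlapped with each other, followed by CD38, SOX4, ARPP21 and CD33 without overlap, and then CD34, KIT, FLT3 and WT1, which overlapped. These orders use FPKM, which is per length, and no test was made between genes.

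**Figure D3:**
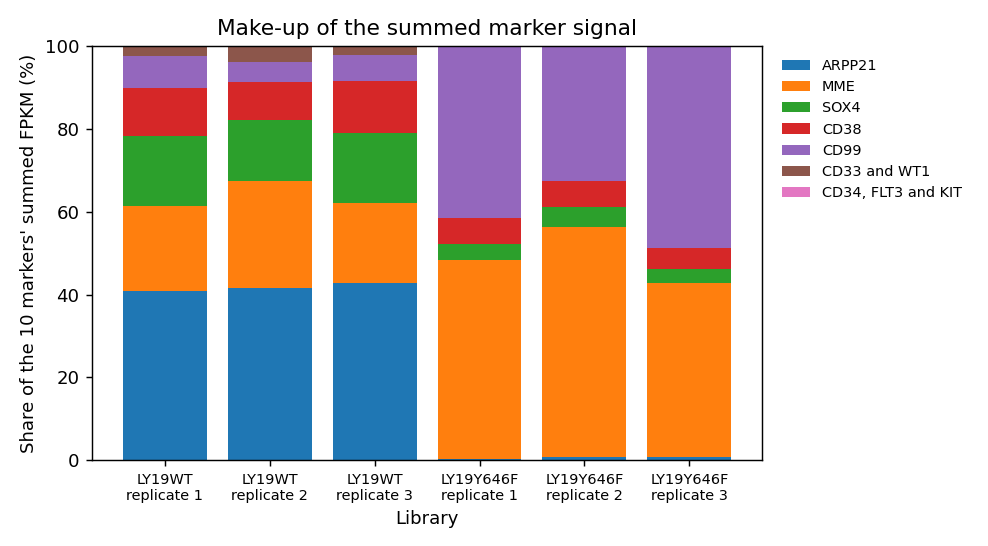
Share of the 10 markers' summed FPKM, in percent, held by each marker or group of markers in the 6 libraries. ARPP21 takes the largest share in each LY19WT library and 0.640% on average in LY19Y646F, where MME and CD99 fill most of the bar.

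The authors' deposited table of their Cuffdiff comparison holds 7 of the 10 markers, not CD34, KIT or CD99. The authors' deposited table gives ARPP21 226 FPKM in LY19WT and 1.94 FPKM in LY19Y646F, both above the means of the library tables. For MME the authors' deposited table gives 102 and 137 FPKM, and for CD38 47.6 and 14.8 FPKM. SOX4 has 30.3 and 4.48 FPKM in the authors' deposited table, over a wider locus (chromosome 6, 21520860 to 21600440) than in the library tables. WT1 has 1.94 and 0.00276 FPKM, CD33 7.06 and 0.266 FPKM and FLT3 0.201 and 0.00668 FPKM in the authors' deposited table. The direction was the same as in the library tables for each of the 7.

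Other genes around the markers were read from lists of general knowledge, whose counts stand against 33.3% called among all tested genes (16.5% lower and 16.8% higher). Some members reached the filter through 1 line alone, where they were high, and so had to differ to be tested. The counts and medians of the lists are therefore descriptions. Of 20 genes of early progenitors 11 were tested, of which 6 fell and 1 rose in LY19Y646F, with a median log2 change of -0.80 against -0.03 over all tested genes. ERG and BAALC were tested through LY19WT alone, and of the 9 members at or above the filter in both lines 4 fell and 1 rose. ERG, an ETS factor of stem cells, fell from 9.28 ± 1.07 to 0.0118 ± 0.0205 FPKM (SD; 3 libraries per line), and BAALC, a gene of CD34-positive cells, from 1.98 ± 0.131 to 0.0456 ± 0.0406 FPKM. MYB, a factor of immature blood cells, fell from 171 ± 19.1 to 34.7 ± 6.80 FPKM and HHEX, a homeobox factor, from 10.8 ± 2.02 to 2.53 ± 0.0644 FPKM (limma adjusted p from 5.2e-05 to 0.00082 for these 4 genes). PTPRC, the common leukocyte antigen CD45, which is often dim on lymphoblasts, was the member that rose, from 3.92 ± 0.617 to 83.7 ± 11.6 FPKM (limma adjusted p = 4.9e-05).

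Of 22 precursor B genes 19 were tested, 9 fell and 3 rose, with a median log2 change of -0.68. DNTT, RAG2, CD9 and AKAP12 were tested through LY19WT alone, and of the other 15 members 5 fell and 3 rose. Several of these falls were known when the markers were chosen. DNTT, the terminal transferase of receptor rearrangement, had 90.7, 170 and 99.7 FPKM in LY19WT against 0.0481, 0.0816 and 0.0814 FPKM in LY19Y646F, and fell (limma adjusted p = 4.7e-05). The tetraspanin CD9 fell from 267 ± 26.1 to 0.376 ± 0.0820 FPKM (SD, 3 libraries per line) and the scaffold protein AKAP12 from 248 ± 21.5 to 0.0912 ± 0.0395 FPKM (limma adjusted p = 1.3e-05 for both). EBF1, which commits cells to the B lineage, fell from 43.5 ± 1.08 to 5.20 ± 0.367 FPKM (SD, n = 3 each; limma adjusted p = 3.5e-05). Against that direction IL7R, the receptor chain for the growth factor of B precursors, rose from 5.78 ± 0.800 to 19.9 ± 2.80 FPKM (limma adjusted p = 0.0011) and CD79B from 160 ± 18.6 to 309 ± 29.8 FPKM (limma adjusted p = 0.0035). Of 20 mature B genes 11 were tested, and 8 rose and 2 fell, with a median of 3.36. BLK, FCRLA, CD86, IRF8 and TNFRSF13C were tested through LY19Y646F alone and CCR7 through LY19WT alone, and of the other 5 members 4 rose and 1 fell. FCRLA, a receptor-like protein of B cells, rose from 0.485 ± 0.0292 to 158 ± 12.7 FPKM, and the kinase BLK from 0.0151 ± 0.0189 to 28.8 ± 4.80 FPKM (limma adjusted p = 1.3e-05 and 2.8e-05). IRF8, a factor of germinal centre B cells, and CD86, a costimulatory ligand, rose as well, to 196 ± 60.2 and 13.9 ± 2.39 FPKM. In the other direction, BANK1, a B cell scaffold, fell from 8.22 ± 1.61 to 1.45 ± 0.190 FPKM and the homing receptor CCR7 from 6.22 ± 1.67 to 0.419 ± 0.162 FPKM (limma adjusted p = 0.00080 and 0.00087).

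**Figure D4:**
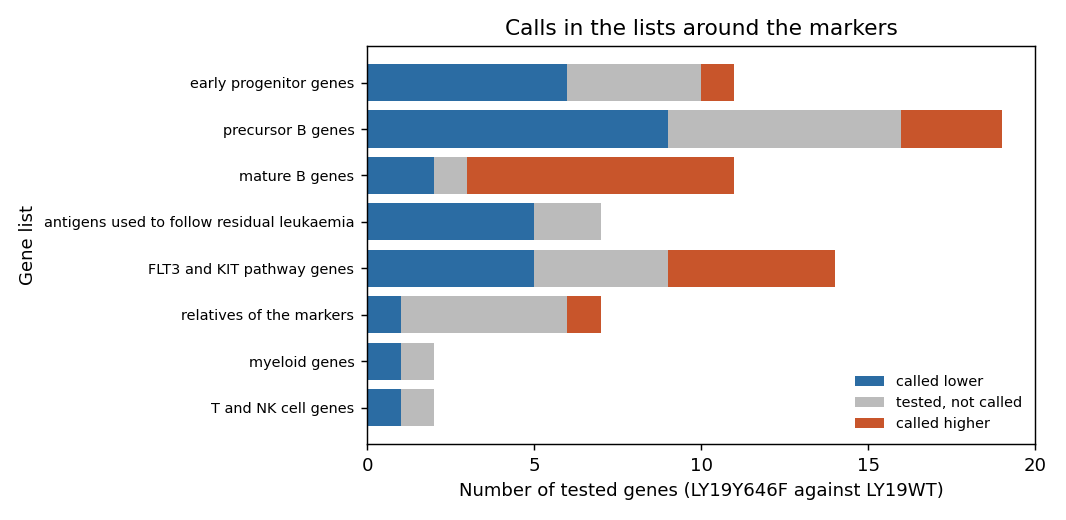
Number of tested genes in each list that were called lower (blue), not called (grey) or called higher (orange) in LY19Y646F against LY19WT. Early progenitor, precursor B and residual leukaemia lists hold more lower than higher calls, and the mature B list has 8 of 11 higher.

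Antigens used alongside MME and CD38 to follow residual leukaemia were listed for 18 genes, of which 7 were tested. In LY19Y646F 5 of these fell and the other two were not called, with a median log2 change of -2.72. CTGF, VIM and CD44 were tested through LY19WT alone and IL3RA through LY19Y646F alone, and of the other 3 members 2 fell. CTGF, a secreted matrix protein, fell from 37.2 ± 6.30 to 0.00778 ± 0.00770 FPKM (SD, n = 3 each), the adhesion molecule CD58 from 34.8 ± 3.99 to 1.59 ± 0.685 FPKM and the integrin chain ITGA4 from 130 ± 25.5 to 19.0 ± 4.36 FPKM. VIM, an intermediate filament, fell from 414 ± 162 to 0.149 ± 0.0685 FPKM. The adhesion receptor CD44 also fell and was listed at 0 in each LY19Y646F library (limma adjusted p from 2.8e-05 to 0.00089 for the 5 genes). CD99, which is used in the same way but was not in the list, rose.

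FLT3 and KIT signal through adaptors, phosphatases and STAT5. Of 20 genes of that pathway 14 were tested, and 5 rose and 5 fell, with a median log2 change of 0.21. STAT5A, SOCS2 and DUSP6 were tested through LY19WT alone, and of the other 11 members 5 rose and 2 fell. STAT5A fell from 31.0 ± 3.45 to 0.443 ± 0.274 FPKM and DUSP6, a phosphatase induced by ERK signalling, from 75.4 ± 26.8 to 0.181 ± 0.115 FPKM (SD, n = 3 each; limma adjusted p = 5.2e-05 and 9.2e-05). CBLB, a ubiquitin ligase, rose from 2.04 ± 0.167 to 14.2 ± 2.71 FPKM, the kinase PIM1 from 1.82 ± 0.169 to 7.25 ± 0.887 FPKM, the kinase LYN from 26.1 ± 1.27 to 55.9 ± 6.73 FPKM and the phosphatase PTPN6 from 3.02 ± 0.660 to 14.7 ± 7.26 FPKM (limma adjusted p from 0.00039 to 0.011). The ligand gene KITLG was at most 0.00341 FPKM in any library, and FLT3LG lay in merged rows and was not tested.

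Of 19 relatives of the markers 7 were tested, 1 rose and 1 fell, with a median log2 change of 0.19. The share called, 28.6%, was near the 33.3% of all tested genes. ECE1, a peptidase of the same family as MME, rose from 1.18 ± 0.399 to 6.91 ± 2.32 FPKM (SD, n = 3 each; limma adjusted p = 0.0065). CD99L2, the paralog of CD99, fell from 2.79 ± 0.760 to 1.15 ± 0.236 FPKM (limma adjusted p = 0.033), a call that was lost in 8 of 15 alternatives, where the adjusted p reached 0.11. PODXL, a sialomucin of the CD34 family, measured 2.17 ± 0.0425 and 3.84 ± 1.46 FPKM and was not called, although it was without LY19Y646F replicate 1 (0.84, limma adjusted p = 0.0066) and with library weights (0.81, limma adjusted p = 0.0041). EGR1, a zinc finger factor related to WT1, measured 1.39 ± 0.245 and 0.747 ± 0.0823 FPKM and was not called (limma adjusted p = 0.059), with an adjusted p of 0.012 to 0.44 over the alternatives.

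Other cell types that express CD33 or share markers with progenitors were checked beside these results. Of 15 myeloid genes 2 were tested and LYZ, lysozyme, fell from 11.9 ± 1.63 to 0.156 ± 0.0934 FPKM (SD, n = 3 each; limma adjusted p = 6.7e-05), moving in the same direction as CD33 and, like it, tested through LY19WT alone, and its part in that result was not tested. The defining myeloid genes MPO, ELANE, CEBPA and CSF3R were at most 0.0848 FPKM in any library, and CD14 at most 0.433 FPKM. SPI1, a factor of myeloid and B cells, measured 8.02 ± 5.76 and 12.1 ± 13.4 FPKM and was not called. Of 15 T and NK cell genes 2 were tested, ZAP70 fell from 3.03 ± 0.660 to 0.261 ± 0.211 FPKM (limma adjusted p = 0.0024), and NKG7 was not called, both tested through LY19WT alone. CD3E was listed at 0 in LY19WT and measured 0.736, 0.987 and 1.06 FPKM in LY19Y646F, and CD2 was at most 0.124 FPKM. CD3G, CD7, CD4, GATA3 and NCAM1 were also below the filter and higher in each LY19Y646F library than in LY19WT, at 0.989 FPKM or less. CD5 and CD8A had lower means in LY19Y646F, with overlapping libraries.

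Of the 20 nearest protein-coding genes on either side of the markers, among those with usable rows, 9 were tested, 5 fell and 2 rose, where 33.3% of all tested genes were called. RCN1, GSX2 and PLCH1 were tested through LY19WT alone and ASMT through LY19Y646F alone, and of the other 5 genes 2 fell and 1 rose. PAN3 after FLT3, GSX2 before KIT and PLCH1 after MME were among those that fell. On either side of WT1, at 282 and 148 kb, RCN1, a calcium-binding protein of the endoplasmic reticulum, fell from 46.3 ± 4.68 to 0.131 ± 0.00690 FPKM and EIF3M, a subunit of a translation initiation factor, rose from 497 ± 36.6 to 692 ± 71.4 FPKM (SD, n = 3 each; limma adjusted p = 2.0e-05 and 0.024). FBXL5, an iron-sensing ubiquitin ligase subunit 87.8 kb from CD38, fell from 27.9 ± 2.39 to 9.04 ± 0.824 FPKM, close to the levels of CD38 itself (limma adjusted p = 0.00051). ASMT, an enzyme of melatonin synthesis 765 kb from the row of CD99, rose from 0.0614 ± 0.0442 to 10.1 ± 1.29 FPKM (limma adjusted p = 5.7e-05), while XG, 10.7 kb away on the other side, was at or below 0.271 FPKM in each library. CDKAL1, 361 kb from SOX4, and PDCD6IP, 1769 kb from ARPP21, were not called (log2 differences of -0.06 and 0.31). For each called marker the tested gene with the most similar values over the 6 libraries, by root mean square difference in log2(FPKM + 1), was ZMYM6 for CD38 (0.17), TXLNG for CD99 (0.32), TARBP1 for SOX4 (0.20), GTSF1 for ARPP21 (0.39), RP4-655J12.4 for WT1 (0.03) and RNU2-3P for CD33 (0.13).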

How the data were processed

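Messenger RNA from 3 libraries of each line was sequenced as single reads of 85 bases from a stranded kit, per the labels' protocols. STAR 2.5.3a, Cufflinks 2.2.1, Cuffdiff 2.2.1 and hg19 are named in the submitters' processing notes. The authors deposited FPKM per gene and library with a 95% interval, and a Cuffdiff table holding 1 FPKM value for each line with their log2 ratio, per the file headers. Loci were assembled in each library, so a row can name several genes.

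Rows were joined by symbol. A row counted for a gene that was its only name or its only protein-coding name. A symbol was left out if any library lacked such a row, named it in another kind of row, or did not mark its row as OK. This left out 8897 of 56539 symbols. Gene types came from GENCODE 29. Coordinates count from 1. The 10716 genes whose average over the 6 libraries reached 0.5 FPKM entered limma 3.58.1 (R 4.3.3) as log2(FPKM + 1) (trend, two-sided, Benjamini-Hochberg adjustment over all tested genes, threshold 0.05). Log2 changes from the fit are differences on the log2(FPKM + 1) scale, LY19Y646F minus LY19WT, unless an alternative changed the pseudocount. The fit was tested on simulated data. Joins, exact permutation tests and plots used Python 3.11.15, pandas 2.3.3, numpy 2.4.6 and matplotlib 3.10.9.

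Absolute depth is unknown, so precision rests on the libraries' spread and the Cufflinks intervals. Named genes were the 10 markers, EZH2, defining markers, up to 4 members per list (147 symbols in 8 lists, 121 usable) with the smallest adjusted p from the direction with more calls plus up to 2 called the other way, and the nearest match of each called marker. CD44, CSF3R, ELANE, CEBPA, CD14, CD2, KITLG, FLT3LG, RAG2, TNFRSF13C, IL3RA, SOCS2 and neighbouring genes were named besides. So were LMO2, CD3G, CD7, CD4, GATA3, NCAM1, CD5 and CD8A. The result of 1 defining marker is not reported here. The markers and lists were chosen with earlier results of these data known. Alternatives changed the pseudocount, filter, scaling, weights, merged rows, replicate block and libraries.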

Additional observations from a re-analysis of the deposited data

How the results depend on the processing

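The 5 lower calls among the markers were made in each of 16 alternatives except the filter at 2 FPKM, which leaves WT1 untested (4 lower). The higher call of CD99 was absent only where rows naming a single gene were required, which leaves CD99 out (0 higher), and leaving out 1 library gave 1 to 2, the second being MME without LY19WT replicate 2. Summing the CD99 and CD99P1 rows was chosen after seeing the data. LY19WT kept 7 markers at 0.5 FPKM and 5 at 5 FPKM, and LY19Y646F 5 and 4. The count of called genes, 3567, became 5782 with library weights and 2705 to 4028 without 1 library. With all genes above 0 tested, called relatives numbered 5 in place of 2, myeloid genes 3 in place of 1 and T and NK genes 5 (4 higher, 1 lower) in place of 1 lower, and FLT3 was called lower while CD34 and KIT were not. Called relatives numbered 1 with a filter at 2 FPKM, quantile scaling, the replicate block or merged rows, 4 with library weights and 1 to 3 without 1 library. T and NK genes numbered 0 with the 2 FPKM filter and 1 to 2 without 1 library. SPI1 reversed to -0.08, -0.07 and -0.67 without LY19WT replicate 2, LY19WT replicate 3 and LY19Y646F replicate 1 (range over libraries left out -0.67 to 0.86). The cause was not tested.

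Same-numbered libraries of the lines deviated together at correlations of 0.27, 0.099 and 0.14 across genes, and each library correlated best with its own number, a hint from the data only. The replicate block gave 1921 higher and 1964 lower calls, with the same 5 lower and 1 higher markers. Depth limits what can be said of CD34, KIT and FLT3, whose intervals reach 0 in most libraries.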

Other observations

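Some genes outside the tested set separated the lines, either at low levels or in merged rows. SOX11, a relative of SOX4, measured 0.954, 0.942 and 1.02 FPKM in LY19Y646F and 0.00212, 0 and 0.00398 FPKM in LY19WT. PDGFRB, a receptor of the same family as KIT, measured 0.732, 0.763 and 0.739 FPKM in LY19WT but 0 in the 3 LY19Y646F libraries, and CSF1R measured 0.713 ± 0.300 and 0.0866 ± 0.0388 FPKM (SD, n = 3 each). Rows naming RAG1, part of the recombinase of antigen receptor genes, held 171 ± 16.8 FPKM in LY19WT and 0.693 ± 0.332 FPKM in LY19Y646F. The row naming PAX5, the factor that maintains B cell identity, held 99.6 ± 16.7 and 27.2 ± 7.03 FPKM. These genes were chosen after their values were seen and lie below the level for testing or in merged rows.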
